A study of Mus musculus with 56 samples.

Results

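The libraries described here compare a Ctcf shRNA with a control shRNA in double-negative cells of reprogramming day 3, which were sorted as negative for both the fibroblast surface marker Thy1 and the intermediate-state marker SSEA1. They were chosen by title, D3_shCTCF_SSEA1-Thy1- (2 libraries) against D3_shLuci_SSEA1-Thy1- (2 libraries), and are 4 of the 44 libraries of the sorted-cell table and 4 of the 56 in the series. The series followed mouse embryonic fibroblasts (MEFs) with an Oct4-GFP reporter (OG2) on the way to pluripotent cells while the level of CTCF was changed. All 4 libraries come from such fibroblasts carrying the reprogramming factors Oct4, Sox2, Klf4 and Myc (OSKM). The labels' protocols describe delivery of OSKM by separate retroviruses and by an inducible lentivirus with rtTA, the transactivator that doxycycline switches on, and do not say which was used for these libraries. In both cases cells were kept in embryonic stem cell medium with Vitamin C. The arms differ in the virus for the shRNA, aimed at Ctcf in one and named shLuci in the control. The labels do not say whether the 2 libraries of a group came from separate cultures, so the p-values rest on the spread between libraries of a group, estimated over all 22 groups of the table, and that spread may be technical.

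CTCF is a zinc finger protein that binds a long, directional DNA motif and stops the cohesin ring as it extrudes chromatin loops. Loops anchored at CTCF sites keep enhancers and promoters of neighbouring domains apart, and at the H19 and Igf2 locus CTCF on the maternal allele keeps shared enhancers from reaching Igf2. In the first days of OSKM reprogramming, fibroblasts reduce their mesenchymal program, lose Thy1 and take up epithelial features. This comes before any pluripotency gene of the late network is active. Double-negative cells stand between the Thy1+ and SSEA1+ populations.

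The unit, here called a score, is a per-gene value that the authors normalized so that every library has nearly the same distribution. Scores of 1 gene are compared between libraries. Levels are not compared between genes, because it is not known here whether scores are scaled by gene length. All 4 libraries had a median score of 500 and totals from 31790810 to 31792075, so sequencing depth is unknown. Across genes, which are not independent replicates, the log2 scores of the 2 controls correlated at r = 0.981, as did those of the 2 knockdown libraries. Fold changes are differences of log2(score + 1), which understates the change of genes with low scores, with a moderated standard error (SE) from limma fitted to all 44 libraries. A gene was called at a Benjamini-Hochberg adjusted p below 0.05. An exact permutation test of 2 against 2 libraries cannot go below p = 0.333, so no single gene can be called from these 4 libraries by permutation.

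The sort label was set against the levels of the marker genes. Thy1 stood at 248 and 252 in the 2 double-negative controls, against 3504 and 4287 in the Thy1+ controls and 216 and 202 in the SSEA1+ controls of day 3. Fut9, an enzyme that can make the SSEA1 epitope, stood at 1590 and 1302, between the Thy1+ controls (635 and 666) and the SSEA1+ controls (4898 and 6004). The 6 fibroblast markers summed to 79248 and 84750, again between the Thy1+ controls (139063 and 127444) and the SSEA1+ controls (20056 and 21025). With the Ctcf shRNA this sum was 82064 and 78894, so the groups overlapped. Thy1 was at 228 and 249 in the knockdown libraries (log2 fold change -0.07, adjusted p = 0.941), and Fut9 at 862 and 1158 (-0.53, adjusted p = 0.769). Of the 5 pluripotent cell markers, Nanog, Esrrb, Dppa5a, Zfp42 and Utf1 summed to 20 and 13 in the controls and to 4 and 10 with the Ctcf shRNA.

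Ctcf (GRCm38 8:105636568-105682922, plus strand) had scores of 1091 and 1160 with the control shRNA and of 570 and 566 with the Ctcf shRNA. Both knockdown libraries lay far below both controls, and the mean was 0.505 times the control mean (log2 fold change -0.98, SE 0.0863, adjusted p = 3.40e-08). The log2 fold change was -0.76 in Thy1+ cells and -0.83 in SSEA1+ cells. The double-negative effect differed from the Thy1+ effect by -0.23 (95% interval -0.48 to 0.03, unadjusted p = 0.0757 with limma). From the SSEA1+ effect it differed by -0.16 (-0.41 to 0.09, unadjusted p = 0.21 with limma). Neither difference passed after adjustment over all genes, which does not show that the reductions were equal. Of the 19 measured genes for cohesin, its loaders and releasers and other loop regulators, 1 rose and Ctcf fell. Stag1, a subunit of the cohesin ring, rose from 5126 and 5868 to 6876 and 7163 (0.36, adjusted p = 0.0153), a call that ended without control replicate 1 (0.26, adjusted p = 0.27) and without either knockdown library. The cohesin ring genes Rad21 (-0.14, adjusted p = 0.19), Smc1a (-0.12, adjusted p = 0.406) and Stag2 (0.11, adjusted p = 0.767) were not called. Among 13 genes of ISWI remodelling complexes, 1 was called: Baz1a, the non-catalytic ACF subunit, rose from 4378 and 4841 to 5892 and 5949 (0.36, adjusted p = 0.00605; 0.29 and adjusted p = 0.137 without control replicate 1, 0.36 and adjusted p = 0.062 without knockdown replicate 2). Smarca5, the ATPase of these complexes, had scores of 117041 and 117724 in the controls and of 124594 in both knockdown libraries (0.09, adjusted p = 0.827). What reads make up this unusually high score was not examined.

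In the scores of the 4 reprogramming factors, reads of the delivered and of the endogenous genes were not told apart. Pou5f1 stood at 7976 and 8858 with the control shRNA and at 9793 and 9078 with the Ctcf shRNA (0.17, adjusted p = 0.792). Sox2 went from 8718 and 10011 to 10152 and 10271 (0.13, adjusted p = 0.84), Klf4 from 15834 and 17788 to 19578 and 19464 (0.22, adjusted p = 0.525), and Myc from 13180 and 14534 to 16549 and 17062 (0.28, adjusted p = 0.314). None of the 4 was called, and the knockdown libraries of all 4 lay above both controls, as they did in 24.5% of all genes.

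With the Ctcf shRNA, 657 of 13451 genes tested were called (4.88%), 315 higher (2.34%) and 342 lower (2.54%). At an unadjusted p below 0.05 there were 2152 (16%). The changes were mostly moderate: the median size among called genes was 0.51 for rises and 0.59 for falls on the log2 scale, 47 rises and 70 falls reached a doubling or halving, and 10 of each reached a log2 change of 2 in size. The median over all genes was 0.00, which the normalization of every library to nearly the same distribution largely fixes. A shift of most genes together could therefore not show. The count leans on every library and on the spread shared with the other populations: without any 1 of the 4 libraries it lay between 285 (without knockdown replicate 2) and 324 (without control replicate 2), 158 of the 657 genes were called in each of these 4 fits, and a fit to the 4 libraries alone called 17 genes, 4 of them among the 657.

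**Figure D1:**
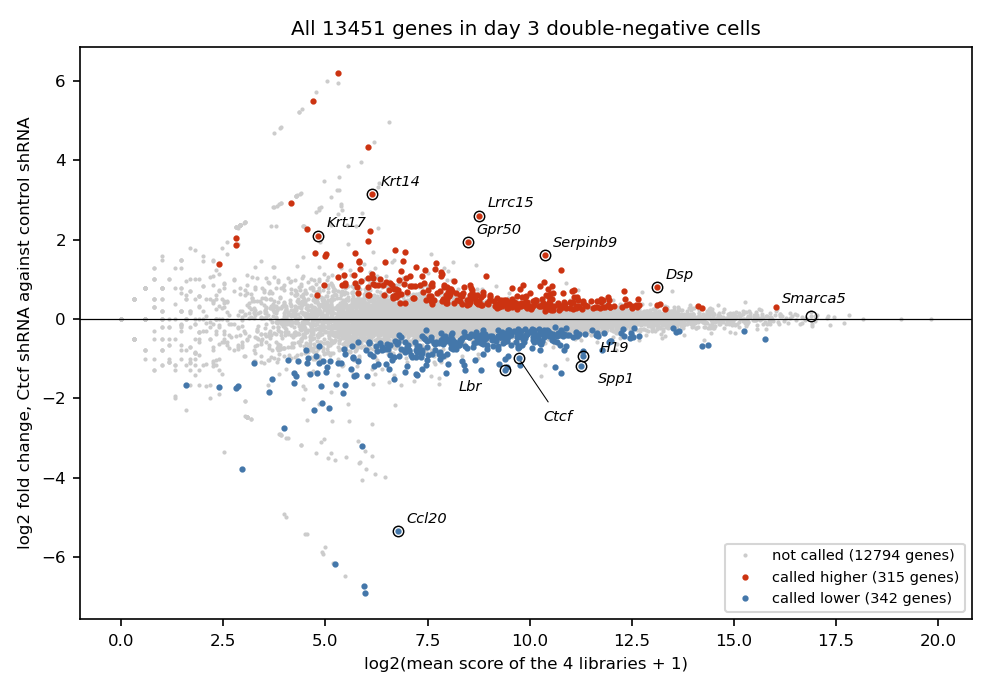
Log2 fold change with the Ctcf shRNA (vertical axis) against log2 of the mean score of the 4 day 3 double-negative libraries plus 1 (horizontal axis) for 13451 genes. Grey points were not called, red and blue points are the 315 genes called higher and the 342 called lower, and circles mark named genes. Most calls lie within 1 log2 unit of 0, the largest changes are at low scores, and Smarca5 sits at a high score near 0.

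The genes named below had the largest changes, 12 in each direction, among genes whose higher group mean reached the median gene's level and whose libraries did not overlap between the groups. Such separation held in 48% of all genes and is no mark of change by itself.

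Lrrc15 (16:30269302-30283256, minus strand), a leucine-rich repeat membrane protein of stromal cells, rose from 116 and 128 to 736 and 761 (log2 fold change 2.61, or 6.10-fold, SE 0.218, adjusted p = 1.97e-08). Gpr50 (X:71663667-71669257, plus strand), an orphan receptor of the melatonin receptor family, rose from 157 and 139 to 566 and 575 (1.94, SE 0.199, adjusted p = 4.21e-07). Radil (5:142484839-142551098, minus strand), an effector of the small GTPase Rap in cell adhesion, rose from 545 and 554 to 994 and 916 (0.80, SE 0.110, adjusted p = 3.35e-05). In each of these genes the 2 knockdown libraries were close to each other and clear of the controls. Fetub (16:22918334-22939778, plus strand), the secreted protease inhibitor fetuin-B, went from 1049 and 1023 to 1788 and 1738 (0.77, SE 0.222, adjusted p = 0.0421). Its call is the weakest of the 24 and ended in each of the 4 fits without 1 library (adjusted p 0.166 to 0.212), although its libraries agree closely.

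Serpinb9 (13:33003250-33017957, plus strand), which inhibits granzyme B, rose from 592 and 712 to 1992 and 1967 (1.61, SE 0.199, adjusted p = 6.01e-06). The next measured gene on its 3′ side, the related Serpinb9b, rose from 1622 and 1634 to 2909 and 2474 (0.72, adjusted p = 0.00201; adjusted p = 0.0634 without knockdown replicate 1), and near-identical sequence between the relatives could split reads. Miat (5:112213228-112229395, minus strand), a long noncoding RNA, rose from 1052 and 1021 to 2553 and 2326 (1.23, SE 0.235, adjusted p = 0.00168). In each of the 3 both knockdown libraries lay above both controls.

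Papss2 (19:32595790-32667187, plus strand), which makes the sulfate donor used on proteoglycans, rose from 317 and 301 to 672 and 649 (1.09, SE 0.196, adjusted p = 0.000805). Pde8a (7:81213596-81334533, plus strand), a cAMP phosphodiesterase, rose from 874 and 938 to 1649 and 1795 (0.93, SE 0.134, adjusted p = 6.49e-05). Zfyve9 (4:108637466-108780798, minus strand), the adaptor that brings Smad proteins to TGF-beta receptors, rose from 860 and 886 to 1677 and 1446 (0.83, SE 0.0854, adjusted p = 4.21e-07). All 3 rose in both knockdown libraries and kept their call without any 1 library. Actg2 (6:83512905-83536265, minus strand), the smooth muscle gamma actin, rose from 1128 and 1026 to 2062 and 1757 (0.82, SE 0.114, adjusted p = 3.27e-05). Sfn (4:133600556-133602168, minus strand), the epithelial 14-3-3 protein sigma, rose from 652 and 657 to 1172 and 1194 (0.85, SE 0.151, adjusted p = 0.00072). Dsp (13:38151294-38198577, plus strand), the desmosome protein desmoplakin, rose from 5888 and 7071 to 10710 and 11918 (0.81, SE 0.111, adjusted p = 2.73e-05). Its knockdown scores lay near those of the SSEA1+ controls, at 10706 and 13336.

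Lbr (1:181815335-181843046, minus strand), the lamin B receptor that tethers heterochromatin to the inner nuclear membrane, fell from 983 and 922 to 380 and 394 (log2 fold change -1.30, or 0.407-fold, SE 0.108, adjusted p = 1.97e-08). Its neighbour Dnah14 fell too, from 152 and 111 to 62 and 46 (-1.27, adjusted p = 0.0109; adjusted p = 0.171 without knockdown replicate 2 and 0.167 without control replicate 1). The ends of the 2 genes overlap on opposite strands, and the labels name no strand marking, so reads of the overlap cannot be told apart. Col6a3 (1:90765923-90843971, minus strand), a chain of the microfibril collagen VI, fell from 1944 and 2444 to 948 and 925 (-1.22, SE 0.147, adjusted p = 4.03e-06). Col6a2 (10:76595762-76623630, minus strand) fell from 859 and 944 to 460 and 432 (-1.01, SE 0.0872, adjusted p = 2.94e-08). For both chain genes the 2 knockdown libraries were close together and clear of the controls. Spp1 (5:104435118-104441050, plus strand), the secreted phosphoprotein osteopontin, fell from 3445 and 3388 to 1472 and 1541 (-1.18, SE 0.125, adjusted p = 6.51e-07).

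Pdgfd (9:6168584-6378850, plus strand), a platelet-derived growth factor, fell from 934 and 1027 to 410 and 432 (-1.22, SE 0.174, adjusted p = 5.18e-05). Aqp1 (6:55336432-55348555, plus strand), a water channel, fell from 564 and 513 to 258 and 271 (-1.02, SE 0.195, adjusted p = 0.00168). Ceacam1 (7:25461707-25477603, minus strand), an adhesion receptor with close relatives whose reads could be mixed with its own, fell from 1149 and 1252 to 502 and 568 (-1.17, SE 0.126, adjusted p = 8.71e-07). Each of these had its 2 knockdown libraries clear of the controls. Epdr1 (13:19591706-19619927, minus strand), an ependymin-related protein, fell from 633 and 632 to 242 and 278 (-1.28, SE 0.120, adjusted p = 1.06e-07). Nt5dc2 (14:31131053-31139124, plus strand) fell from 811 and 854 to 386 and 371 (-1.13, SE 0.0741, adjusted p = 2.13e-10), and no gene among the 24 had a smaller adjusted p. Samd9l (6:3372257-3399572, minus strand), an interferon-inducible gene, fell from 2149 and 2827 to 1258 and 727 (-1.36, SE 0.253, adjusted p = 0.00123). Its knockdown libraries differed more from each other than those of the other falls, and the call ended without knockdown replicate 2 (-0.97, adjusted p = 0.0771).

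**Figure D2:**
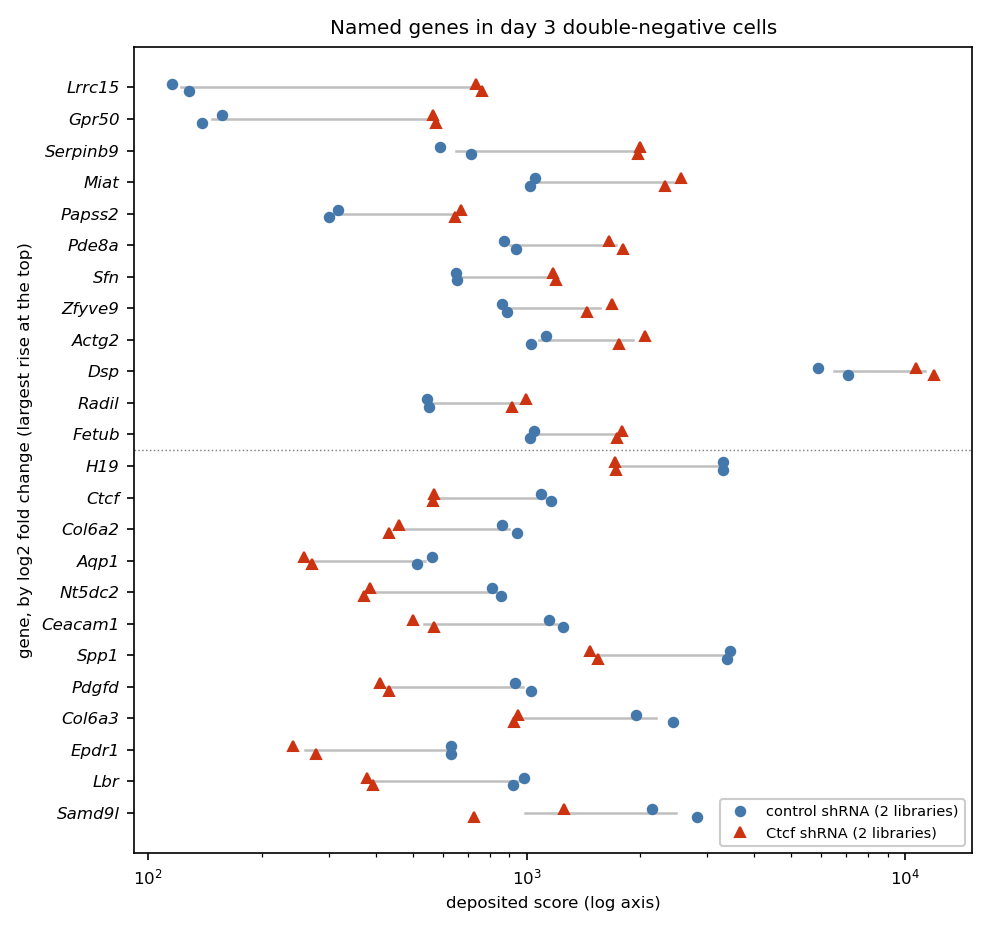
Deposited score (horizontal log axis) of the 24 named genes in each day 3 double-negative library, with circles for the 2 control and triangles for the 2 Ctcf shRNA libraries and a grey line joining the group means. Genes above the dotted line rose and genes below it fell. The groups are separate in every gene, by the rule that chose them, and the pair of Samd9l knockdown libraries, at 1258 and 727, is the widest apart.

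H19 (7:142575529-142578143, minus strand), a maternally expressed long RNA whose locus is the standard example of CTCF insulation, fell from 3304 and 3296 to 1708 and 1726 (-0.94, SE 0.10, adjusted p = 6.51e-07). Igf2 stood at 2265 and 2190 with the control shRNA and at 1856 and 1649 with the Ctcf shRNA (-0.35, SE 0.116, adjusted p = 0.0876), so it was not called, and its libraries lay on the same side as those of H19. Mrpl23, the next measured gene to H19, fell from 297 and 260 to 194 and 176 (-0.59, adjusted p = 0.0233), a call that ended in each of the 4 fits without 1 library (adjusted p 0.0556 to 0.233). Scores join both alleles, and allele-specific reads were not analysed here. Of 30 imprinted genes, 3 rose and 3 fell (median 0.02). Peg3, a zinc finger gene expressed from the paternal allele, rose from 1178 and 1174 to 1846 and 1852 (0.65, adjusted p = 0.00126). The other rises, Rtl1 (0.87, adjusted p = 0.0299) and Plagl1 (0.48, adjusted p = 0.0159), and the falls Ppp1r9a (-0.78, adjusted p = 0.0192) and Nnat (-0.50, adjusted p = 0.0303) each lost their call without at least 1 library, with adjusted p up to 0.354 (Rtl1, without control replicate 1), 0.188 (Plagl1, without control replicate 2), 0.143 (Ppp1r9a, without knockdown replicate 2) and 0.283 (Nnat, without control replicate 1).

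Of 24 listed keratinocyte genes, 10 were measured, so most of the list is not covered. Of the 10, 6 rose, none fell and 4 were not called. Their median was 0.69 against 0.00 over all genes (2.34% of which were called higher). Krt14, the basal-layer keratin, rose from 11 and 16 to 122 and 130 (3.15, SE 0.326, adjusted p = 4.85e-07). Krt17, a keratin of hair follicles and wounded skin, rose from 10 and 9 to 36 and 54 (2.10, SE 0.273, adjusted p = 1.10e-05). The 2 genes lie near each other on chromosome 11. The wound keratins Krt6a (24 and 24 to 72 and 86; 1.67, SE 0.335, adjusted p = 0.00247) and Krt6b (148 and 143 to 306 and 316; 1.09, SE 0.191, adjusted p = 0.000626) are neighbours on chromosome 15 and near-identical in sequence, so reads could be split between them. Sfn, above, and Perp, a desmosome protein, which went from 8010 and 7505 to 9678 and 10070 (0.35, adjusted p = 0.00125), complete the 6. Every one of the 6 kept its call without any 1 library. The levels of the first 3 keratins were low in all 4 libraries, and of the keratinocyte markers Krt14 is the only one measured, while Krt5 and Trp63 were not analysed here. In bulk RNA, a change in the number of cells of a type and a change of RNA per cell cannot be told apart, here and in what follows.

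Of 31 genes of epithelial junctions and keratins, 5 rose and none fell (median 0.34). Esrp1, the epithelial splicing regulator, rose from 14 and 16 to 50 and 44 (1.58, SE 0.206, adjusted p = 1.10e-05). Cldn4, a tight junction protein, rose from 37 and 34 to 65 and 70 (0.91, SE 0.109, adjusted p = 3.69e-06). St14, the protease matriptase, rose from 442 and 401 to 612 and 620 (0.55, SE 0.0967, adjusted p = 0.000675), and Dsp is given above. Each of these rises held without any 1 library. The best-known epithelial genes were not called: Cdh1, for E-cadherin, stood at 114 and 136 against 213 and 196 (0.71, adjusted p = 0.174), Epcam at 94 and 66 against 118 and 107 (0.51, adjusted p = 0.16), Krt8 at 327 and 338 against 279 and 296 (-0.21, adjusted p = 0.422) and Krt18 at 120 and 145 against 128 and 117 (-0.11, adjusted p = 0.856). The 5 epithelial markers summed to 669 and 701 in the controls and to 788 and 760 with the Ctcf shRNA. Of 28 pluripotency genes, 19 had a negative and 6 a positive log2 fold change (median -0.21), a description that was not tested. None was called higher. Sall4 fell from 6 and 14 to 1 and 4 (-1.70, adjusted p = 0.00446), a call that ended without knockdown replicate 1 and without control replicate 2. Nanog stood at 5 and 8 against 2 and 2 (-1.29, adjusted p = 0.101) and was not called.

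Among 30 fibroblast matrix genes, 4 fell and none rose (median 0.03; 2.54% of all genes fell). Besides Col6a3 and Col6a2, a further collagen VI chain gene, Col6a1, fell from 4654 and 4935 to 3288 and 3272 (-0.55, SE 0.0826, adjusted p = 0.000111), a call kept without any 1 library. Loxl1, which crosslinks elastin, fell from 1577 and 1654 to 1260 and 1204 (-0.39, adjusted p = 0.0375), a call that ended in each of the 4 fits without 1 library (adjusted p 0.124 to 0.239). Col1a1, the main fibrillar collagen chain, stood at 16892 and 18413 in the controls and at 18148 and 17957 with the Ctcf shRNA (0.03, adjusted p = 0.959). Of the other fibroblast markers, Col3a1 (0.02, adjusted p = 0.98) and Vim (0.02, adjusted p = 0.966) overlapped between the groups as well. Col1a2, at 19806 and 22012 against 17957 and 18672 (-0.19, adjusted p = 0.299), and Pdgfra, at 128 and 142 against 83 and 90 (-0.64, adjusted p = 0.0894), lay lower in both knockdown libraries and were not called. Of 25 mesenchymal regulators, 4 fell and none rose (median -0.02): Cdh11 (-0.37, adjusted p = 0.0205), Prrx1 (-0.34, adjusted p = 0.032), Hmga2 (-0.34, adjusted p = 0.0206) and Tcf4 (-0.29, adjusted p = 0.0328). None of these 4 was called in all fits without 1 library, with adjusted p up to 0.247 (Cdh11, without knockdown replicate 1), 0.291 (Prrx1, without knockdown replicate 1), 0.254 (Hmga2, without control replicate 2) and 0.239 (Tcf4, without knockdown replicate 1).

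Of 35 growth factors and their receptors, 4 fell and none rose (median -0.14). Fgf7, the keratinocyte growth factor made by fibroblasts, fell from 2340 and 2313 to 1336 and 1378 (-0.78, SE 0.0906, adjusted p = 2.50e-06). Nrg1, a ligand of ErbB receptors, fell from 1270 and 1366 to 869 and 886 (-0.59, SE 0.101, adjusted p = 0.000536). Both calls held without any 1 library. Igfbp4, which binds insulin-like growth factors, fell by 0.54 (adjusted p = 0.00558; 0.139 without control replicate 1, 0.0854 without knockdown replicate 1) and Hbegf by 0.37 (adjusted p = 0.0281; 0.369 without knockdown replicate 1, 0.326 without control replicate 2). Of 29 genes of TGF-beta and BMP signalling, 4 members of the list fell and none rose (median -0.01). Zfyve9, described above, and the BMP regulator Bmper are not on the list and were called higher. Bmper, named after its values were seen, went from 371 and 340 to 576 and 562 (0.68, adjusted p = 0.0422; 0.131 to 0.244 in the 4 fits without 1 library). Grem1, a secreted BMP antagonist, fell from 4868 and 4716 to 3320 and 3218 (-0.55, SE 0.108, adjusted p = 0.00203), a call kept without any 1 library. Inhbb, an activin subunit, fell by 0.58 (adjusted p = 0.00746; up to 0.0983, without knockdown replicate 2). Ltbp1, which stores latent TGF-beta in the matrix, fell by 0.27 (adjusted p = 0.0446; 0.1 to 0.301 in the 4 fits without 1 library).

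Among called inflammatory genes, 2 chemokine genes had the largest falls. Of 21 inflammatory cytokines and chemokines, 3 fell and 1 rose (median 0.00). Cx3cl1, the membrane-bound chemokine fractalkine, fell from 281 and 315 to 136 and 161 (-1.0, SE 0.159, adjusted p = 0.000201). Ccl20 stood at 232 and 177 in the controls and was listed at 0 and at 24 with the Ctcf shRNA (-5.35, SE 1.16, adjusted p = 0.00518), a call that ended without knockdown replicate 1 (-3.03, adjusted p = 0.268) and without control replicate 1 (-5.15, adjusted p = 0.0602). Il1rl1 fell by 0.39 (adjusted p = 0.00863; 0.205 without knockdown replicate 2, 0.0978 without control replicate 1) and Cxcl14 rose by 0.59 (adjusted p = 0.00599; 0.0802 without control replicate 1, 0.0688 without knockdown replicate 1).

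Of 16 measured macrophage genes, 3 fell, none rose and 13 were not called (median -0.43). Lyz2, a lysozyme, fell from 70 and 64 to 22 and 14 (-1.87, adjusted p = 0.00518; 0.113 without knockdown replicate 2, 0.0595 without control replicate 1), and Laptm5 from 698 and 748 to 547 and 504 (-0.46, adjusted p = 0.0185; 0.0598 to 0.193 in the 4 fits without 1 library). Ctss, a cathepsin, stood at 9 and 18 in the controls and was listed at 0 in both knockdown libraries (adjusted p = 0.00148). The 9 macrophage markers analysed summed to 1166 and 1187 in the controls and to 920 and 837 with the Ctcf shRNA, and most of the sum was Laptm5. The 9 did not move as 1 group. Laptm5, Lyz2 and Cd53 (150 and 120 against 80 and 24; -1.59, adjusted p = 0.762) were lower in both knockdown libraries. Csf1r was at 114 and 110 against 117 and 133 (0.15, adjusted p = 0.788), Cd68 at 119 and 126 against 132 and 122 (0.05, adjusted p = 0.959) and Ptprc at 8 and 12 against 19 and 36 (1.33, adjusted p = 0.666). Adgre1 was at 0 and 4 against 0 and 1, C1qa at 2 and 2 against 0 and 1, and C1qb at 5 and 1 against 3 and 2. The part of macrophage RNA in the falls of Ccl20, Cx3cl1 and Spp1 was not tested. Of the other marker sets, the 3 endothelial markers analysed summed to 103 and 97 in the controls and to 148 and 141 with the Ctcf shRNA, nearly all of it Kdr, with Cdh5 and Pecam1 at 6 or less in every one of the 4 libraries. The skeletal muscle markers Acta1 and Ttn summed to 494 and 475 against 556 and 527.

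Of 19 AP-1 and immediate early genes, 5 rose, none fell and 14 were not called (median 0.15). Atf3, a stress-induced transcription factor, rose from 201 and 210 to 306 and 371 (0.71, SE 0.126, adjusted p = 0.000727). Jun, a core AP-1 subunit, rose from 1708 and 1773 to 2244 and 2418 (0.42, SE 0.0717, adjusted p = 0.000489). Both held without any 1 library. Fos (0.34, adjusted p = 0.00829), Ier2 (0.34, adjusted p = 0.0093) and the phosphatase gene Dusp1 (0.29, adjusted p = 0.00954) did not, with adjusted p up to 0.129 (without knockdown replicate 2), 0.142 (without control replicate 2) and 0.128 (without control replicate 1). Of 24 p53 targets and CDK inhibitors, 6 rose, none fell and 18 were not called (median 0.13). Perp, above, kept its call without any 1 library. Mdm2, the ligase that degrades p53, rose from 5187 and 5195 to 6355 and 6638 (0.32, adjusted p = 0.00452; 0.0787 without knockdown replicate 2). Pmaip1 (0.51), Gadd45a (0.49), Cdkn2b (0.46) and Plk2 (0.33) were the other rises, each lost without at least 1 library, with adjusted p up to 0.127 (without knockdown replicate 2), 0.271 (without knockdown replicate 1), 0.149 (without knockdown replicate 2) and 0.0836 (without control replicate 1). Cdkn1a, for the p21 inhibitor, was not called, at 5758 and 6216 against 6723 and 6711 (0.17, adjusted p = 0.263), nor was Cdkn2a, at 934 and 814 against 670 and 663 (-0.39, adjusted p = 0.353).

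Of 35 DNA replication genes, 33 had a negative log2 fold change, with a median of -0.16, and 1 was called against 34 that were not: Rrm2, the ribonucleotide reductase subunit, fell from 4586 and 4287 to 2747 and 2424 (-0.78, SE 0.116, adjusted p = 8.85e-05), a call kept without any 1 library. Of 32 mitosis genes, 30 were negative (median -0.15) and 4 fell: Ttk (-0.38, adjusted p = 0.00989), Kif23 (-0.33, adjusted p = 0.00873), Ccnb1 (-0.32, adjusted p = 0.0037) and Top2a (-0.26, adjusted p = 0.0483). The kinesin gene Kif23 went from 1446 and 1386 to 1098 and 1160, and Ccnb1, for cyclin B1, from 2631 and 2370 to 1998 and 2008. Each of the 4 lost its call without at least 1 library, with adjusted p up to 0.185 (Ttk), 0.124 (Ccnb1; both without control replicate 1), 0.132 (Kif23, without knockdown replicate 1) and 0.591 (Top2a, without control replicate 2). Members of these lists rise and fall together in cycling cells and are not independent of each other, so the number that are negative is a description. No member was called among 23 glycolysis, 36 proteasome subunit or 78 cytosolic ribosomal protein genes, and 1 of 89 oxidative phosphorylation genes was called, lower. Over all genes, 2.34% were called higher and 2.54% lower. With 1 library left out, the median ran from -0.23 to 0.25 for the ribosomal protein genes. For the oxidative phosphorylation genes it ran from -0.25 to 0.13. Both lists varied between libraries, so the lack of calls does not show that they were steady.

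The Hox and protocadherin clusters, long gene arrays with many CTCF sites, held 1 called gene. None of 30 Hox genes was called (median -0.08). Of 28 clustered protocadherin genes, which use CTCF for promoter choice in neurons, 26 had a negative log2 fold change, with a median of -0.09, and 1 was called: Pcdhb19 stood at 38 and 57 against 7 and 14 (-2.12, SE 0.626, adjusted p = 0.0477), a call that ended in each of the 4 fits without 1 library (adjusted p 0.0837 to 0.379). Alpha and gamma protocadherins share constant exons, so their scores are not separate measurements.

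**Figure D3:**
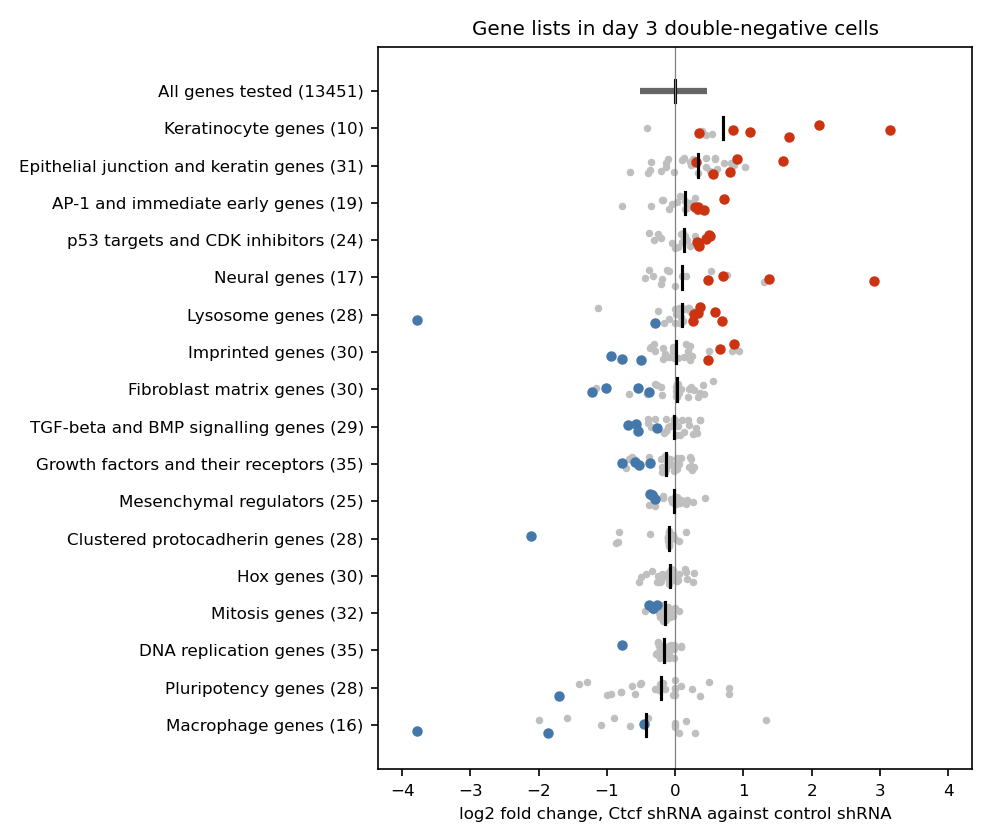
Log2 fold change with the Ctcf shRNA (horizontal axis) of the members of 17 gene lists in day 3 double-negative cells, with the number measured in parentheses. Each point is a gene, red called higher, blue called lower and grey not called. Black ticks are medians, and the bar on top spans the 5th to 95th percentile of all 13451 genes, -0.51 to 0.47. Called members of the keratinocyte list lie to the right only, those of the fibroblast matrix list to the left only, and both proliferation lists sit narrowly to the left of 0.

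Neighbouring genes were compared because CTCF separates chromatin domains. Of the 657 called genes, 99 (15.1%) had a called gene as the next measured gene on at least 1 side, against 9.44% of all genes measured and placed. A neighbour called in the same direction was found for 70 (10.7%, against 5.06% of all genes), and a neighbour called in the opposite direction for 30 (4.57%, against 4.51%). Gene families lie side by side and can share reads, as the keratin pairs and the pair Serpinb9 and Serpinb9b show, so these shares are a description. Among the 47 neighbours of the named genes, 6 were called in the direction of the named gene. They were Dnah14 beside Lbr, Col6a1 beside Col6a2, Serpinb9b beside Serpinb9, Mrpl23 beside H19, the fetuin gene Ahsg beside Fetub and the predicted gene Gm26953 beside Miat. Gm26953 overlaps Miat on the opposite strand, so, as for Lbr and Dnah14, reads of the overlap cannot be told apart. The shares above include such overlapping genes. Ahsg went from 37 and 48 to 93 and 83 (1.04, adjusted p = 0.0167; 0.205 without control replicate 1). Vma21, beside Gpr50, was called in the opposite direction, from 66276 and 62461 to 40346 and 51160 (-0.50, adjusted p = 0.00906; 0.272 without knockdown replicate 1). The remaining 40 neighbours were not called.

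Promoters were searched for a match to the core of the CTCF motif, since a match near a gene's start is where the protein could bind. A 12-letter form of that core, with 8 letters fixed and 4 free, was looked for on both strands of RefSeq windows from 250 bases before to 50 bases after each gene's start (GRCm38.p6). The motif stood in 797 of 32851 windows (2.43%) and in 339 of the 10261 measured genes that had a window (3.3%). Among genes called higher it stood in 14 of 246 (5.69%), and among genes called lower in 16 of 252 (6.35%). A match is a description of the sequence, not evidence that the protein sits there, and binding was not measured in these libraries. The windows of 8 called genes are shown, cut to 24 bases on either side of the match where the window and the start site allow, on the strand of the gene, with the match in capitals. They are the genes with a match before the start site that had the largest changes, 4 in each direction, among called genes that met the level and overlap rules above. The first 4 rose and the last 4 fell, and the fixed letters can be read from the capitals they share in either direction.
Radil: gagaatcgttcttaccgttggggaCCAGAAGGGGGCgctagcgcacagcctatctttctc
Cpne8: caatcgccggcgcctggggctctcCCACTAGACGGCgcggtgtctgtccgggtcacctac
Nr1d1: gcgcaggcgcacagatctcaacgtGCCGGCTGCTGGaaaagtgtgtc
Ddah2: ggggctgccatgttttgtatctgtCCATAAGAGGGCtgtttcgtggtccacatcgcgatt
Samd9l: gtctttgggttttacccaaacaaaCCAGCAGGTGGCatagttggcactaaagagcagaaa
Fgf7: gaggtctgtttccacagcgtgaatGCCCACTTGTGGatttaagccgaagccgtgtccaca
Glipr2: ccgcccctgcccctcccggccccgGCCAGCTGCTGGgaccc
Bhlhb9: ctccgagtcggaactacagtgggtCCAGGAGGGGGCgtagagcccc

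Radil and Samd9l are among the 24 named genes. The Radil match (chr5:142551244-142551303 with its flanks, minus strand) lies at -181 to -170 from the start and the Samd9l match (chr6:3399586-3399645, minus strand) at -50 to -39, both in the motif's forward direction. Fgf7 carries its match in the reverse direction at -180 to -169 (chr2:126034454-126034513, plus strand). Glipr2 (chr4:43957661-43957701, plus strand; match at -17 to -6), a Golgi-membrane protein gene, fell from 664 and 586 to 380 and 358 (-0.76, SE 0.0952, adjusted p = 7.67e-06), a call kept without any 1 library. Bhlhb9 (chrX:135885805-135885850, plus strand; match at -22 to -11) fell from 626 and 505 to 406 and 328 (-0.62, adjusted p = 0.00402; adjusted p = 0.136 without knockdown replicate 2 and 0.133 without control replicate 1). The genes shown were picked as 4 in each direction, so their directions are no result. Cpne8 (chr15:90679571-90679630, minus strand; match at -218 to -207), a copine, rose from 480 and 470 to 656 and 638 (0.44, adjusted p = 0.00683; 0.0765 without knockdown replicate 1 and 0.0688 without control replicate 2). Nr1d1 (chr11:98775378-98775424, minus strand; match at -23 to -12), the clock repressor Rev-erb alpha, rose from 522 and 596 to 740 and 730 (0.40, adjusted p = 0.0362). Ddah2 (chr17:35058849-35058908, plus strand; match at -162 to -151), which breaks down methylated arginines, rose from 428 and 444 to 572 and 560 (0.38, adjusted p = 0.0452). The last 2 were called in none of the 4 fits without 1 library (adjusted p 0.0525 to 0.345 for Nr1d1 and 0.144 to 0.244 for Ddah2).

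The response was set beside those of the Thy1+ and SSEA1+ cells of the same day and of double-negative cells on days 6 and 9. None of these shares a library with it. All share each gene's estimate of spread from the joint fit, so the lists of calls are not independent. The titles do not say whether the day 3 populations were sorted from the same cultures. If they were, a difference between the control and knockdown cultures would appear in all of them. Their agreement would then not be a set of separate observations. In Thy1+ cells 541 genes were called (4.02%; 1.46% higher and 2.56% lower) and in SSEA1+ cells 912 (6.78%; 3.56% higher and 3.22% lower). Of the 657 double-negative genes, 303 were called in the same direction in Thy1+ cells (46.1% of the double-negative and 56% of the Thy1+ calls) and 0 in the opposite direction. In SSEA1+ cells 379 were called in the same direction (57.7% and 41.6%) and 3 in the opposite one. Signs agreed for 97.7% of the 657 genes in Thy1+ cells and for 95.9% in SSEA1+ cells, against 72% and 70.7% of all genes. The double-negative rises had a median of 0.51 here, 0.37 in Thy1+ cells and 0.41 in SSEA1+ cells, and the falls of -0.59, -0.44 and -0.46. The genes were called on the double-negative values, which by itself makes those medians the larger.

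The named genes had 1 direction across the day 3 populations, and most were called in that direction later. All 24 had the same sign in Thy1+ and in SSEA1+ cells, with 21 and 22 of them called. At day 6, where 5659 genes were called in double-negative cells (42.1%; 20.2% higher and 21.9% lower), 16 of the 24 were called in the same direction and 2 in the opposite one, and at day 9 (3763 calls, 28%; 14.6% higher and 13.4% lower) 14 and 1. Over all 657 genes, 373 were called in the same direction at day 6 (56.8%) and 78 in the opposite one, and 329 (50.1%) and 46 at day 9. Lbr (-1.70 at day 6 and -0.95 at day 9), Nt5dc2 (-1.72 and -1.06), Gpr50 (3.17 and 2.67) and Serpinb9 (2.81 and 1.87) were called at all 3 times in the same direction. H19 was not called at day 6 (0.12, adjusted p = 0.375) or day 9 (0.03, adjusted p = 0.844). Aqp1 was higher with the Ctcf shRNA at day 6 (1.27, adjusted p = 8.42e-06), as was Col6a3 (0.54, adjusted p = 0.00444), and Lrrc15 was lower at day 9 (-0.62, adjusted p = 0.0347). These are the calls in the opposite direction, and the change between days was not tested.

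**Figure D4:**
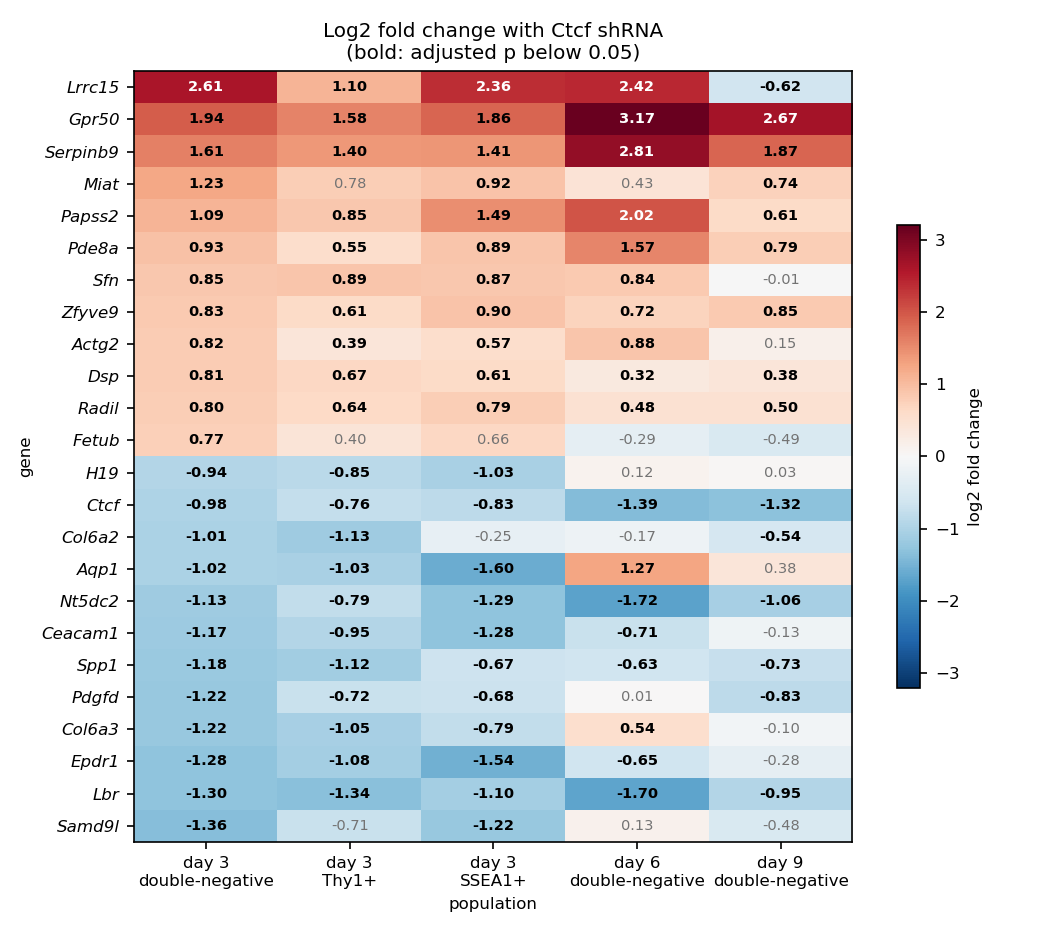
Log2 fold change with the Ctcf shRNA of the 24 named genes (vertical axis, in the order of the day 3 double-negative change) in 5 populations (horizontal axis), as numbers and colours, with bold numbers for an adjusted p below 0.05. The 3 day 3 columns agree in sign for all 24 genes, and Aqp1 and Col6a3 at day 6 and Lrrc15 at day 9 are called with the other sign.

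The difference between the effect in double-negative cells and that in Thy1+ cells passed the threshold for 0 genes with limma (295 at an unadjusted p below 0.05, 2.19%). For Lrrc15, with 2.61 against 1.10, the difference was 1.51 (adjusted p = 0.178). The difference from SSEA1+ cells passed it for 12 genes (0.0892%), 3 higher (0.0223%) and 9 lower (0.0669%) in double-negative cells, with 557 at an unadjusted p below 0.05 (4.14%). This count moved between 1 (without D3_shLuci_SSEA1-Thy1- replicate 2) and 30 (without D3_shLuci_SSEA1+ replicate 2) when 1 of the 8 libraries was left out. Col6a2 fell in double-negative cells while in SSEA1+ cells it stood at 279 and 284 against 234 and 238 (-0.25, adjusted p = 0.085), a difference of -0.76 (SE 0.123, adjusted p = 0.00547; called in 7 of the 8 fits without 1 library, with adjusted p up to 0.106, and not in a fit to the 12 day 3 libraries, 0.138). Ltbp1 fell slightly here, from 3117 and 3310 to 2647 and 2696, and rose in SSEA1+ cells from 784 and 854 to 1134 and 1033 (0.40, adjusted p = 0.00134), a difference of -0.67 (SE 0.110, adjusted p = 0.00547; called in 6 of the 8 fits, and not in the 12-library fit, 0.35). For both genes the Thy1+ effect lay next to the double-negative one, at -1.13 and -0.28.

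**Figure D5:**
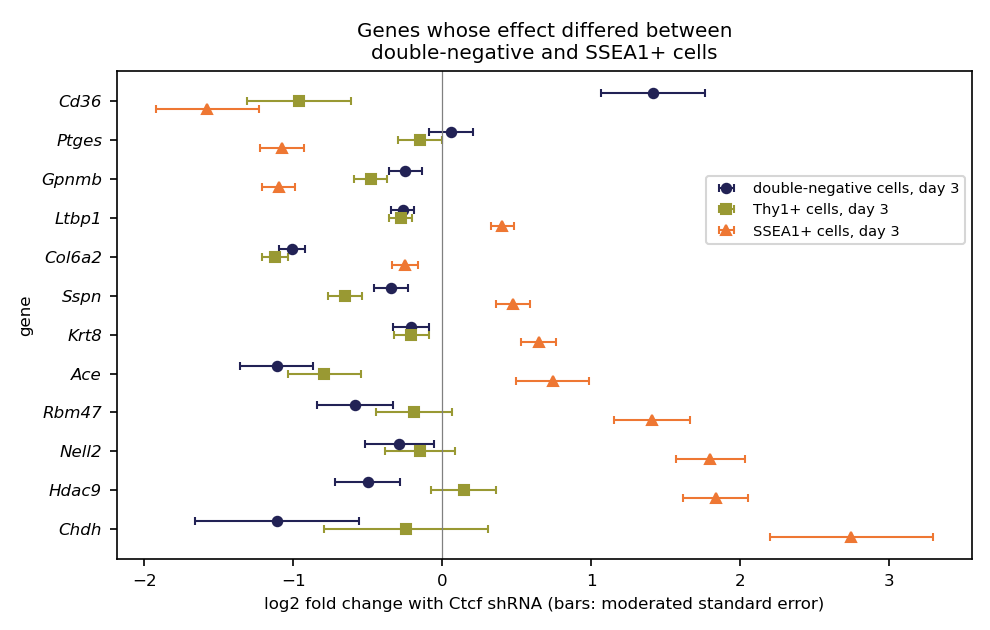
Log2 fold change with the Ctcf shRNA (horizontal axis, bars are moderated standard errors) in double-negative (circles), Thy1+ (squares) and SSEA1+ cells (triangles) of day 3 for the 12 genes whose effect differed between double-negative and SSEA1+ cells (vertical axis). The triangles stand apart from the circles by construction of the list. Thy1+ squares lie beside the circles for Ltbp1, Col6a2 and Krt8 and on the side of the SSEA1+ cells for Cd36.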

How the data were processed

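RNA from 4 libraries was analysed with the other 40 libraries of the sorted-cell table. Per the submitters' processing notes, Trim Galore, FastQC and RSEM were used with GRCm38 (mm10), and versions were not given. Libraries were made from total RNA with a NEBNext Ultra kit, per the labels' protocols. The deposited values are a score: whole numbers that the authors normalized between libraries and rounded. The normalization is not given in the sources used here and was read from the values, which share a median of 500 in every library.

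Because scores are not counts, no count model was used. The log2(score + 1) values of all 44 libraries entered 1 linear model (limma 3.58.1, R 4.3.3) with a coefficient for each of 22 groups, 22 residual degrees of freedom and a spread that follows the mean level. A gene needed a score of 10 in 2 or more libraries, which all 13451 reached. Repeat types (819) were set aside. Gene positions are those of GRCm38. The model was tested on simulated data.

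Ctcf, Smarca5, Pou5f1, Sox2, Klf4, Myc and Thy1 are always named. In each direction the 12 called genes with the largest change are named, given a higher group mean at or above the median gene and libraries that do not overlap. So are up to 4 genes per direction for a difference between populations, and up to 4 called members of a list with its best-known ones. Symbols of predicted genes, pseudogenes and clones were passed over, and a gene meeting these terms may still not be reported here. Further genes are named as neighbours or for their promoter. The comparison, the 43 gene lists and these terms were chosen with earlier results of these data known. Alternatives changed the pseudocount, filter, scaling, libraries, spread estimate and replicate block, and left out each library.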

Additional observations from a re-analysis of the deposited data

Results flagged for a closer look

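The following genes were flagged because the knockdown effect in double-negative cells differed from that in SSEA1+ cells of the same day by a test of the difference itself (limma, adjusted p below 0.05, 12 of 13451 genes). The difference, double-negative minus SSEA1+ on the log2 scale, was largest in size for Chdh (-3.86, adjusted p = 0.0409), whose scores were between 0 and 14 in all 8 libraries. For Hdac9, a class II histone deacetylase, it was -2.34 (adjusted p = 0.000685): Hdac9 rose by 1.84 in SSEA1+ cells, from 8 and 9 to 36 and 30, and stood at 54 and 41 against 34 and 32 in double-negative cells (-0.50, adjusted p = 0.238). It passed in each of the 8 fits without 1 library and not in a fit to the 12 day 3 libraries (adjusted p = 0.246).

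Nell2 (-2.09, adjusted p = 0.00547), Rbm47 (-2.00, adjusted p = 0.0167) and Krt8 (-0.86, adjusted p = 0.0377) also rose in SSEA1+ cells, by 1.80, 1.41 and 0.65, and were not called in double-negative cells. Sspn (-0.81, adjusted p = 0.0377) did the same with 0.47. Ace fell in double-negative cells from 11 and 13 to 5 and 5 and stood at 12 and 10 against 18 and 20 in SSEA1+ cells, a difference of -1.85 (adjusted p = 0.0207). Col6a2 (-0.76) and Ltbp1 (-0.67) are described above.

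In the other direction, Cd36, a fatty acid transporter, went from 182 and 64 to 318 and 264 in double-negative cells (1.41, adjusted p = 0.0144; 0.67 and adjusted p = 0.437 without control replicate 2) and fell in SSEA1+ cells (-1.58), a difference of 2.99 (adjusted p = 0.00547). Gpnmb (0.85) and Ptges (1.13), each with adjusted p = 0.0167, fell in SSEA1+ cells by 1.10 and 1.08 and were not called here. Without 1 of the 8 libraries the 12 genes passed in 0 (Krt8) to 8 (Hdac9) of the fits. In the fit to the 12 day 3 libraries, Nell2 passed (adjusted p = 0.0187) and the other 11 did not (adjusted p 0.138 for Col6a2 to 0.927 for Chdh). With the replicate block, Ace, Nell2 and Ptges (adjusted p = 0.129 each) and Sspn (0.0896) did not pass. Chdh (0.293) and Rbm47 (0.0802) did not pass with a pseudocount of 8, nor did Chdh (0.202), Nell2 (0.126), Rbm47 (0.0658) and Ptges (0.0502) after quantile normalization.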

How the results depend on the processing

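No gene called in double-negative cells changed sign under any alternative. The sign could turn only where the pseudocount, the scaling or the set of double-negative libraries was changed. In the other alternatives the log2 fold change was the same by construction, also for the named genes counted below. Dropping the filter on low values changed nothing, since every gene passed it. The count of 657 was 636 with a pseudocount of 0.5, 752 with 8, 603 with a mean score of at least 50, 687 after quantile normalization, 653 with median-ratio scaling, 645 with robust and 656 with trendless eBayes. It fell to 415 (196 lower) in a fit to the 12 day 3 libraries and to 17 (7 higher, 10 lower) in a fit to the 4 libraries, where 3 of the 24 named genes passed. Those fits hold fewer samples. Without 1 library the calls ranged from 285 to 324 (108 to 162 higher, 162 to 180 lower), the difference from SSEA1+ cells from 1 to 30 (0 to 8 higher, 1 to 25 lower) and that from Thy1+ cells from 0 to 6 (0 to 2 higher, 0 to 4 lower). The lone library left in a group is then assumed to vary like the others.

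The difference from Thy1+ cells passed for 2 genes, both higher, with a pseudocount of 8 and for 2, 1 higher and 1 lower, in the 12-library fit. The difference from SSEA1+ cells passed for 3, 0 higher and 3 lower, in the 12-library fit, and for 5 lower with a mean score of at least 50. That filter removed the low-score genes Ace, Chdh, Hdac9 and Rbm47, while Col6a2, Krt8, Ltbp1, Nell2 and Sspn still passed. The cause of the other shifts was not tested. Of 465 values of the named genes under the alternatives, 425 kept direction and side of the threshold and 40 lost their call. In the fit to the 4 libraries 22 of the 40 calls were lost. The 425 include Smarca5, Pou5f1, Sox2, Klf4, Myc and Thy1, which had no call to lose. They also include the setting without a filter, which changed nothing, so the total is no measure of how firm the calls are. Same-numbered libraries deviated together only weakly (r = 0.029 over genes), so the numbers are not taken to pair samples. With the replicate block 790 genes were called, 598 of them among the 657. Depth is unknown, and 2 libraries per group limit precision.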

Other observations

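Further gene groups are given by their called members, beside 2.34% of all genes called higher and 2.54% called lower. Counts of 1 or 2 members do not show that a group moved. Of 28 lysosome genes, 6 rose and 2 fell (median 0.10). The protease gene Ctsd rose from 16061 and 15262 to 19934 and 19722 (0.34, adjusted p = 0.00305; 0.0614 without control replicate 2), Ctsk from 246 and 270 to 375 and 396 (0.58, adjusted p = 0.0236) and Tfeb, the regulator of lysosome genes, from 102 and 92 to 135 and 180 (0.68, adjusted p = 0.034). The last 2 lost their call without 1 library, with adjusted p up to 0.197 (Ctsk, without control replicate 1) and 0.406 (Tfeb, without knockdown replicate 2). Lamp2 fell by 0.29 (adjusted p = 0.0101; 0.222 without knockdown replicate 1). Of 17 neural genes, 4 rose and none fell (median 0.11): Stmn2, which destabilizes microtubules, rose from 4136 and 3562 to 6197 and 6308 (0.70, SE 0.083, adjusted p = 2.95e-06), and Tubb3 from 951 and 930 to 1248 and 1372 (0.48, adjusted p = 0.014; up to 0.177, without knockdown replicate 2). The other rises, Dcx and Elavl3, had scores of at most 31 in all 4 libraries.

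Of 26 Wnt signalling genes, 2 rose and 2 fell (median -0.05). The ligand gene Wnt9a rose from 86 and 82 to 198 and 224 (1.32, SE 0.208, adjusted p = 0.000195), a call kept without any 1 library, and the receptor gene Fzd4 by 0.74 (adjusted p = 0.0264; up to 0.275, without control replicate 1). The antagonist Dkk3 fell by 0.67 (adjusted p = 0.0104; up to 0.254, without control replicate 1) and Nkd2 by 0.78 (adjusted p = 0.00766; up to 0.0946, without control replicate 2). Of 11 adipocyte genes, 2 rose, 1 fell and 8 were not called (median -0.02). Plin2, the lipid droplet coat protein, rose from 5310 and 5349 to 7669 and 7536 (0.51, SE 0.082, adjusted p = 0.000223), and Lpl, lipoprotein lipase, fell from 2137 and 2058 to 1412 and 1259 (-0.65, SE 0.117, adjusted p = 0.000833). Both calls were kept without any 1 library, and the other rise, Cd36, is given above. Of 22 interferon-stimulated genes, 1 rose and 1 fell (median 0.27).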
